A study of Mus musculus with 6 samples.

Results

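The genes described are the matrix metalloproteinases (MMPs), the ADAMTS proteases, the ADAMTS-like proteins (ADAMTSL) and the tissue inhibitors of metalloproteinases (TIMPs) in photothrombotic stroke tissue. The rule used gene names and annotation and no measured value, although the family was picked with earlier results of these data known. It took the protein-coding genes of the count table called Mmp, Adamts or Adamtsl with a number, or Timp1 to Timp4, and gave 51 of 56748 genes, of which 23 are MMPs, 19 ADAMTS proteases, 5 ADAMTSL proteins and 4 TIMPs. RNA was sequenced from brain tissue that the design text places in the infarct cortex. The mice were male, wild type and C57, and the labels give no age. Every mouse received a photothrombotic stroke, in which an injected agent (100 mg/kg) was lit with a 532 nm laser over the left hemisphere. At 2 hours, 100 µL of saline or of PLEA nanoparticles, an abbreviation the labels do not explain, was injected into the tail vein. The libraries belong to day 3, and 3 were labelled saline (saline 1 to 3) and 3 PLEA (PLEA 1 to 3). No unlesioned tissue was analysed here, and no label says whether each replicate is its own animal. P-values therefore reflect the scatter among these 6 libraries, which exceeded counting noise in every pair but may not be scatter between animals.

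MMPs are zinc enzymes that cut collagens, laminins and other matrix proteins, and they are made as inactive precursors. ADAMTS proteases are secreted relatives that cut proteoglycans, procollagens or von Willebrand factor, while ADAMTSL proteins lack the catalytic domain. TIMPs bind the active site of MMPs and of some ADAMTS enzymes and block it. In stroke the family is known for opening the blood-brain barrier early and for remodelling matrix and vessels later.

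No member differed between PLEA and saline past the threshold of the edgeR quasi-likelihood test, in which 0% of 17584 tested genes passed in either direction at an adjusted p under 0.05. Per length, Timp2 had the highest level, followed by the membrane-type protease Mmp17 and by Timp3. The injury-linked enzymes Mmp3, Mmp8, Mmp9, Mmp12 and Mmp13 had at most 43 counts in any library. The largest fitted difference was in Adamtsl3, an ADAMTS-like matrix protein, which averaged 5.82 ± 2.44 CPM (SD, n = 3) with saline and 1.57 ± 0.397 CPM (SD, n = 3) with PLEA. Timp1 and Mmp12, 2 genes known from injury, varied between libraries of the same group more than between groups.

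Total counts ranged from 16810448 to 17516434 per library. CPM stands for counts scaled to a common depth by the library total and its TMM factor, and RPKM for CPM divided by gene length in kilobases. Cortical excitatory neuron markers were present in every library, at 2574 to 4918 summed CPM over 8 genes, as were 9 striatal markers, at 258 to 2368. Saline 1 had the highest macrophage and microglia marker sums, saline 2 the lowest striatal sum, and PLEA 3 the highest sum of 8 choroid plexus markers, 341 against 40.0 or less. In bulk tissue, fewer cells of a type and less RNA per cell cannot be told apart.

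Of the 51 members, 47 had at least 1 count and 38 passed the filter on low counts and were tested. Levels per length spanned a wide range, with 1 member above 100 RPKM on average, 19 at 1 RPKM or more, that one included, and 32 under 1 RPKM. The 13 members that were not tested were 12 MMPs and Adamts12, so the comparison covers 11 of 23 MMPs but all 5 ADAMTSL genes and all 4 TIMPs. In the median tested member the highest library exceeded the lowest 2.34-fold in CPM, against 1.60-fold over all tested genes, which include many genes with higher counts.

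**Figure D1:**
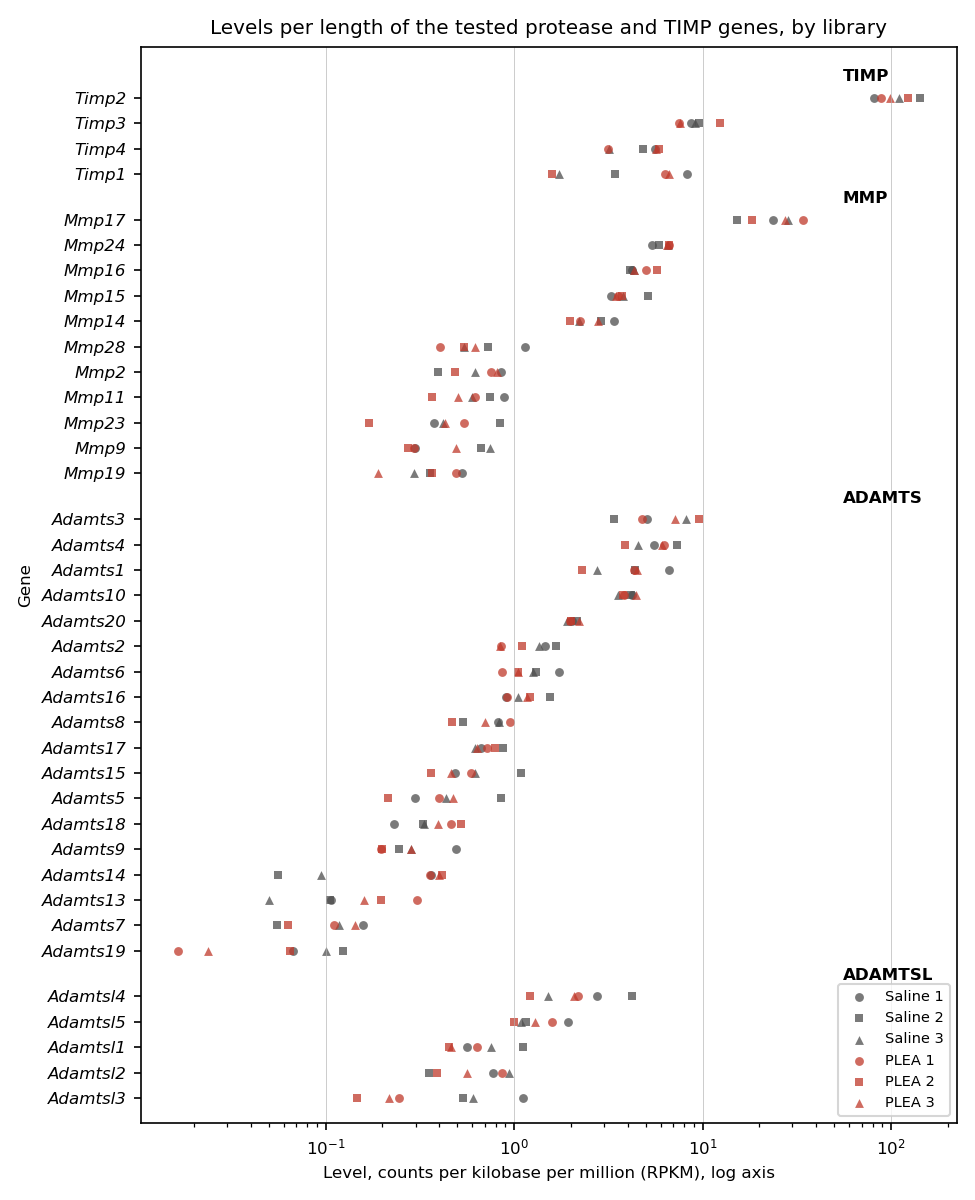
Levels of the 38 tested genes in each of the 6 libraries, in RPKM on a log axis, grouped by family and ordered by mean level. Grey symbols are saline and red symbols PLEA; Timp2 stands above all others, Mmp17 leads the proteases, and the groups overlap for most genes.

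The 4 TIMPs differed widely in level. Timp2, which blocks MMPs and also helps the membrane enzyme MMP14 to activate the MMP2 precursor, was at 81.0, 142 and 110.0 RPKM in saline 1 to 3 and 88.1, 124 and 99.1 RPKM in PLEA 1 to 3. It supplied 33.1% to 48.7% of all member counts in a library. Saline 2 was the highest and saline 1 the lowest, with the PLEA libraries between them, and the fitted log2 fold change was -0.10 (SE 0.22, edgeR adjusted p = 0.947) with a 95% interval of -0.60 to 0.40. In the deposited table Timp2 spans bases 118191895 to 118246566 of chromosome 11.

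Timp3, which sits in the matrix and also inhibits ADAMTS4 and ADAMTS5, was at 8.64, 9.60 and 9.14 RPKM in saline 1 to 3 and 7.54, 12.4 and 7.58 RPKM in PLEA 1 to 3. PLEA 2 stood above the other 5 libraries, and the log2 fold change was 0.0082 with an interval of -0.44 to 0.46. Timp4 was at 5.56, 4.82 and 3.17 RPKM in saline 1 to 3 and 3.17, 5.90 and 5.64 RPKM in PLEA 1 to 3. Saline 3 and PLEA 1 were the low libraries for Timp4, so each group held both low and high values (log2 fold change 0.12, SE 0.27).

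Timp1, the secreted inhibitor that is induced by injury and cytokines, was the most variable TIMP. Its raw values were 125, 53 and 25 counts in saline 1 to 3 and 97, 25 and 106 counts in PLEA 1 to 3. Saline 1, PLEA 1 and PLEA 3 were high, saline 3 and PLEA 2 low and saline 2 between them, a 5.18-fold span in CPM that ran across both groups. Timp1 averaged 3.98 ± 3.00 CPM (SD, n = 3) with saline and 4.32 ± 2.52 CPM (SD, n = 3) with PLEA. Its log2 fold change was 0.12 (SE 0.64, edgeR adjusted p = 0.983), and the 95% interval of -1.35 to 1.58 includes a 2-fold change in each direction. Timp1 made up 1.11% to 7.98% of summed TIMP levels per length, and Timp2 78.3% to 88.8%. Leaving out 1 library moved the log2 fold change of Timp1 between -0.28 (without saline 3) and 0.91 (without saline 1).

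**Figure D2:**
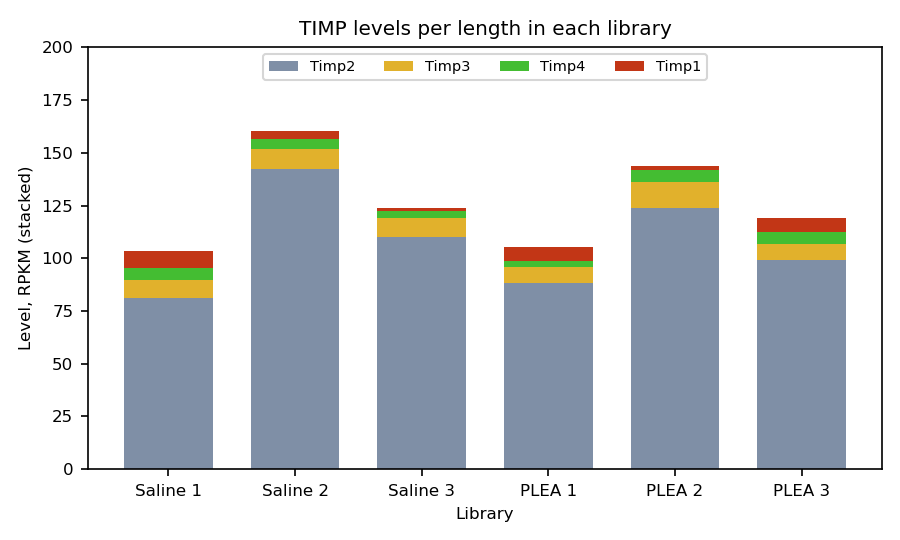
Levels of the 4 TIMP genes stacked for each library, in RPKM. Timp2 fills most of each bar, and the thin Timp1 segment is largest in saline 1, PLEA 1 and PLEA 3.

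The TIMP genes Timp1, Timp3 and Timp4 lie within synapsin genes in GENCODE M21, an annotation of GRCm38. Timp1 lies within Syn1 with 0 shared exon bases, Timp4 within Syn2 with 90 of its 5894 exon bases shared, and Timp3 within Syn3 with 1733 of 8144 shared. Syn1 had 8677 to 11743 counts per library against 25 to 125 for Timp1. Syn3, whose exons overlap most, had 187 to 479 counts against 1063 to 1783 for Timp3. In all, 13 members share exon bases with another gene. The strand setting of the counting is not given in the sources used here, so reads from the host gene cannot be told apart from those of Timp3 and Timp4 in shared exons.

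Membrane-type MMPs, which are anchored at the cell surface, included the best expressed protease. Mmp17 (MT4-MMP), held by a lipid anchor, was at 23.8, 15.2 and 28.5 RPKM in saline 1 to 3 and 34.0, 18.2 and 27.4 RPKM in PLEA 1 to 3. PLEA 1 was the highest and saline 2 the lowest, both groups spanned about the same range, and the log2 fold change was 0.24 (SE 0.27, edgeR adjusted p = 0.886). Mmp24 (MT5-MMP), which is made by neurons, was at 25.3, 27.3 and 30.7 CPM in saline 1 to 3 and 31.1, 31.2 and 30.4 CPM in PLEA 1 to 3. Its libraries were close together, its exons share 637 of 4683 bases with BC029722, and the interval of its log2 fold change was -0.12 to 0.43.

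Mmp16 (MT3-MMP) was at 36.5, 35.6 and 37.6 CPM in saline 1 to 3 and 43.5, 49.6 and 37.7 CPM in PLEA 1 to 3. All 3 PLEA libraries lay above all 3 saline libraries, PLEA 3 by a narrow margin, but the difference did not pass (log2 fold change 0.25, SE 0.13, edgeR adjusted p = 0.818). Mmp14 (MT1-MMP), which activates the MMP2 precursor, was at 20.3, 17.3 and 13.1 CPM in saline 1 to 3 and 13.3, 11.8 and 16.7 CPM in PLEA 1 to 3. Saline 1 and saline 2 were its highest libraries and PLEA 2 its lowest, with saline 3 below 2 PLEA libraries (log2 fold change -0.28, SE 0.21). Mmp15 (MT2-MMP) was at 17.7, 27.7 and 20.4 CPM in saline 1 to 3 and 19.2, 20.1 and 18.7 CPM in PLEA 1 to 3. Saline 2 stood above the other 5 libraries (log2 fold change -0.18, SE 0.18). Mmp25 (MT6-MMP), known from neutrophils, had 25 counts in saline 1 and 5 to 8 in the others and was not tested.

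The gelatinases, which cut denatured collagen and basement membrane, were scarce. Mmp9, the gelatinase most linked to barrier damage in stroke, had 18, 41 and 43 counts in saline 1 to 3 and 18, 17 and 31 counts in PLEA 1 to 3. Saline 2 and saline 3 were high, while saline 1 was about as low as PLEA 1 and PLEA 2, so the groups overlapped. The log2 fold change of Mmp9 was -0.70 (SE 0.44, edgeR adjusted p = 0.838), its interval of -1.70 to 0.31 reaches from a more than 3-fold lower to a slightly higher level, and its unadjusted p of 0.149 became 0.0329 without saline 1 (log2 fold change -0.996, adjusted p = 0.827). Mmp2, the constitutive gelatinase, had 49, 23 and 34 counts in saline 1 to 3 and 44, 29 and 49 counts in PLEA 1 to 3. It had no common direction (log2 fold change 0.14, SE 0.37) and lay at 0.654 RPKM on average, far below the 107 RPKM of its regulator Timp2.

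Neutrophil markers, beside which Mmp8, Mmp9 and Mmp25 are usually read, were mostly close to 0. Their 11 genes together reached 23.1, 7.75 and 28.3 summed CPM in saline 1 to 3 and 8.55, 3.17 and 6.205 summed CPM in PLEA 1 to 3. Csf3r, a receptor gene, was the exception, at 22.3, 6.76 and 7.69 CPM in saline 1 to 3 and 8.15, 2.95 and 5.76 CPM in PLEA 1 to 3. It supplied most of the sum in every library except saline 3, to which Ngp added 7.08 CPM. The sums thus mostly follow this 1 gene. Of these 11 genes 10, all but Csf3r, were at 0 in at least 1 library, among them S100a8, S100a9, Ly6g, Elane and Mpo, and their part in the Mmp9 values was not tested. Saline 3, the library with the most Mmp8 counts (13), also had the highest S100a9 level, 4.99 CPM against 0.293 CPM or less elsewhere.

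The remaining tested MMPs were low as well. Mmp11 (stromelysin-3) had a log2 fold change of -0.58 (SE 0.34), Mmp28 (epilysin) -0.62 (SE 0.35), Mmp23 -0.52 (SE 0.52) and Mmp19 -0.18 (SE 0.43), each with overlapping groups. Mmp11 shares 155 of 2778 exon bases with the opposite-strand gene Chchd10, which had 697 to 1045 counts against 18 to 42 for Mmp11, and Mmp19 shares 789 of 3533 with Tmem198b. Those 2 values are uncertain because the strand setting is not known.

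A run of 10 MMP genes forms a cluster on chromosome 9, from base 7272514 to base 7699586 in the deposited table, and none of them passed the filter on low counts. The cluster holds the collagenases, stromelysins 1 and 2, the macrophage elastase Mmp12, matrilysin (Mmp7) and the tooth enzyme enamelysin (Mmp20). Promoter windows from RefSeq (build GRCm38.p6), 250 bases before to 50 bases after a gene's start, were found for 36 of the 51 members. They were searched for TGACTCA and its reverse complement TGAGTCA, the letters bound by AP-1, the Fos and Jun factor known to drive collagenase and stromelysin genes. The letters occurred in 7 of the 36, and all 7 were among the 10 clustered genes, while 5.95% of 27025 genes with a window held them. The 7 matches are shown because 7 of the 10 barely detected clustered genes share these letters, with the AP-1 letters in capitals and 11 bases on each side, read 5′ to 3′ on the gene's strand.

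Mmp13: ccccaaagtggTGACTCAtcactatcatg
Mmp12: gacatcaacagTGAGTCAgatagaggatt
Mmp1b: gttacaaagccTGAGTCAtatagcctctg
Mmp3: ggaagcaattaTGAGTCAgttttcgggtg
Mmp1a: gttgtcaaccaTGAGTCAcatagcctctg
Mmp10: tagcacccatgTGAGTCAtgcttagtgac
Mmp7: aagtgtgcaaaTGAGTCAcctatttccac

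The matches start between 35 (Mmp13) and 93 (Mmp1b) bases before the RefSeq start site. They lie at chr9:7272468-7272496, chr9:7347319-7347347, chr9:7388102-7388130, chr9:7445765-7445793, chr9:7464057-7464085, chr9:7502268-7502296 and chr9:7692016-7692044, with Mmp1b on the minus strand and the others on the plus strand. The windows of Mmp1a and Mmp1b, a pair of close copies, were identical at 23 of 29 bases, so they are not independent occurrences. Identical bases numbered 18 for Mmp12 and Mmp1a, 17 for Mmp12 and Mmp3 and 16 for Mmp1a and Mmp3, down to 9 for Mmp10 and Mmp1a. Other matches may therefore not be independent either. A match describes letters and does not show that a factor was bound.

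Counts of these genes were few. Mmp1a, Mmp1b, Mmp7 and Mmp20 had 0 counts in all 6 libraries, which allows up to 0.0290 CPM over the libraries together (3 counts, for counting error only). Mmp3 (stromelysin-1), Mmp10 (stromelysin-2) and Mmp27 had 11, 6 and 4 counts in saline 1 and 0 in the other 5 libraries. Saline 1 thus held every read of these 3 genes, which are not direct neighbours. Mmp8, the neutrophil collagenase, had 7, 0 and 13 counts in saline 1 to 3 and 1, 0 and 0 counts in PLEA 1 to 3. Its reads lay in both groups, most of them in saline 3. Mmp13 (collagenase-3) had 1, 0 and 4 counts in saline 1 to 3 and 1, 3 and 1 counts in PLEA 1 to 3.

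Mmp12, the macrophage elastase, had the most counts in the cluster, with 28, 1 and 0 counts in saline 1 to 3 and 23, 0 and 7 counts in PLEA 1 to 3. Saline 1, PLEA 1 and PLEA 3 held all but 1 of its counts, and these are the 3 libraries in which Timp1 was high. Counts at this depth were too low to test any gene of the cluster.

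**Figure D3:**
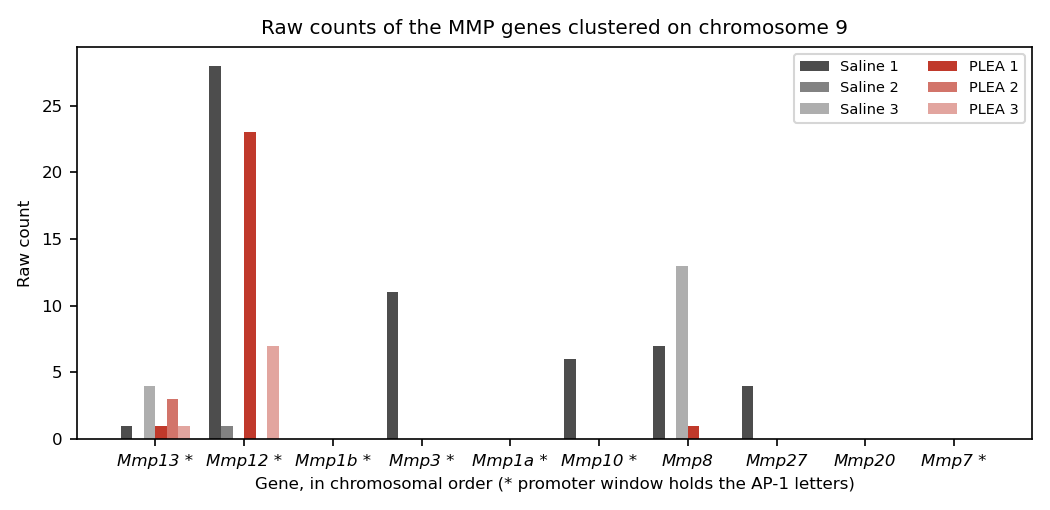
Raw counts of the 10 clustered MMP genes on chromosome 9, in chromosomal order, with 1 bar per library (grey shades saline, red shades PLEA) and an asterisk where the promoter window holds the AP-1 letters. Mmp12 reads come from saline 1, PLEA 1 and PLEA 3 but for 1 read in saline 2, Mmp3, Mmp10 and Mmp27 reads from saline 1, and 4 genes have no bar.

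The ADAMTS proteoglycanases cut aggrecan, versican and brevican, the proteoglycans of brain matrix and perineuronal nets. All 7 were tested, 0 passed, and their median log2 fold change was -0.31, with 6 negative values. Adamts4, the best expressed of them per length, was at 26.5, 35.4 and 22.0 CPM in saline 1 to 3 and 29.9, 18.6 and 29.2 CPM in PLEA 1 to 3. Saline 2 was highest and PLEA 2 lowest, with the other libraries mixed (log2 fold change -0.11, SE 0.23, edgeR adjusted p = 0.945).

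Adamts1, which is induced by inflammation and hypoxia, was at 35.3, 23.4 and 14.5 CPM in saline 1 to 3 and 23.0, 12.2 and 23.8 CPM in PLEA 1 to 3. Its lowest libraries were PLEA 2 and saline 3, 1 from each group, and its interval of -1.10 to 0.48 leaves a difference of 2-fold possible. Adamts5 was at 3.23, 9.25 and 4.68 CPM in saline 1 to 3 and 4.33, 2.32 and 5.09 CPM in PLEA 1 to 3. Saline 2 stood 3.98-fold above PLEA 2, and without saline 2 its log2 fold change moved from -0.55 to -0.015. Adamts15 was at 5.05, 11.3 and 6.46 CPM in saline 1 to 3 and 6.13, 3.74 and 4.81 CPM in PLEA 1 to 3. Saline 2 was again the highest library (log2 fold change -0.63, SE 0.34). For Adamts9 the log2 fold change was -0.59 (SE 0.33), and for Adamts8 it was -0.047 (SE 0.33). Adamts20, the tested member with the smallest span, was at 18.4, 19.5 and 17.1 CPM in saline 1 to 3 and 17.9, 18.1 and 19.96 CPM in PLEA 1 to 3.

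The procollagen N-proteinases trim the ends of fibrillar procollagens, and the fitted values of their 3 genes had both signs. Adamts2, the main enzyme for type I procollagen, was at 13.7, 15.7 and 12.6 CPM in saline 1 to 3 and 7.92, 10.3 and 7.88 CPM in PLEA 1 to 3. Each PLEA library lay below each saline library, but the difference did not pass over all genes (log2 fold change -0.69, SE 0.18, edgeR adjusted p = 0.818, unadjusted p = 0.00543). Leaving out 1 library kept the value between -0.82 and -0.60. Adamts2 spans bases 50492911 to 50698400 of chromosome 11 in the deposited table.

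Adamts3, which in brain also cuts reelin, was at 27.4, 18.3 and 44.6 CPM in saline 1 to 3 and 26.0, 52.0 and 38.7 CPM in PLEA 1 to 3. Saline 2 was the lowest and PLEA 2 the highest library (log2 fold change 0.37, SE 0.34, edgeR adjusted p = 0.867). Adamts14 was low, with 32, 5 and 8 counts in saline 1 to 3 and 32, 38 and 37 counts in PLEA 1 to 3. The 3 PLEA libraries and saline 1 were alike while saline 2 and saline 3 were low. Its log2 fold change of 1.18 (SE 0.60) therefore moved to 2.37 (adjusted p = 0.827) without saline 1 and to 0.75 without saline 2.

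Among the other ADAMTS genes, Adamts13 had the largest positive value. It encodes the enzyme that cuts von Willebrand factor and so limits platelet strings, and it was counted at 9, 9 and 4 counts in saline 1 to 3 and 26, 17 and 14 counts in PLEA 1 to 3. The groups did not overlap, but counts were low and the log2 fold change of 1.31 (SE 0.47, edgeR adjusted p = 0.818) had an interval of 0.24 to 2.37. Its substrate gene Vwf was at 92.5, 31.4 and 45.3 CPM in saline 1 to 3 and 56.1, 24.9 and 50.4 CPM in PLEA 1 to 3, with overlapping groups (log2 fold change -0.36, SE 0.42). The better expressed Adamts10, which binds fibrillin microfibrils, was at 34.8, 34.3 and 29.4 CPM in saline 1 to 3 and 31.5, 31.1 and 36.6 CPM in PLEA 1 to 3. Its groups overlapped, with an interval of -0.29 to 0.31.

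Adamts18 was at 2.35, 3.35 and 3.39 CPM in saline 1 to 3 and 4.68, 5.33 and 4.02 CPM in PLEA 1 to 3, with all PLEA libraries above all saline libraries (log2 fold change 0.63, SE 0.26, edgeR adjusted p = 0.818). Adamts6, a relative of Adamts10, was at 13.6, 10.2 and 9.79 CPM in saline 1 to 3 and 6.76, 8.22 and 8.16 CPM in PLEA 1 to 3, with the order of the groups turned round (log2 fold change -0.53, SE 0.20, edgeR adjusted p = 0.818). Adamts19 had 16, 30 and 23 counts in saline 1 to 3 and 4, 16 and 6 counts in PLEA 1 to 3. Its groups did not overlap, but PLEA 2, at 0.907 CPM, was close to saline 1, at 0.939 CPM (log2 fold change -1.46, SE 0.54, edgeR adjusted p = 0.818). Leaving out 1 library moved it between -1.13 (without PLEA 1) and -2.23 (without PLEA 2).

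Adamts16 was at 6.16, 10.6 and 7.14 CPM in saline 1 to 3 and 6.24, 8.27 and 8.05 CPM in PLEA 1 to 3. Its groups overlapped, with saline 2 the highest library (log2 fold change -0.085, SE 0.25). Adamts17 was at 5.16, 6.82 and 4.80 CPM in saline 1 to 3 and 5.61, 6.18 and 4.92 CPM in PLEA 1 to 3. Here too saline 2 was the highest and the groups overlapped (log2 fold change -0.0078, SE 0.23). Adamts7 had a value of -0.066 (SE 0.51), and Adamts12, which was not tested, had 34 counts in saline 1 and 5 to 18 in the others.

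The ADAMTSL genes encode matrix proteins without protease activity, several of which bind fibrillin microfibrils. All 5 had negative fitted values, 0 passed, and their median log2 fold change was -0.63, against -0.0051 over all tested genes. Adamtsl3 was at 8.62, 4.16 and 4.68 CPM in saline 1 to 3 and 1.91, 1.13 and 1.68 CPM in PLEA 1 to 3. Every PLEA library was at 1.91 CPM or less and every saline library at 4.16 CPM or more.

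In counts Adamtsl3 had 147, 72 and 76 counts in saline 1 to 3 and 33, 20 and 30 counts in PLEA 1 to 3, and the table places it at bases 81984902 to 82263658 of chromosome 7. Its log2 fold change was -1.88 (SE 0.37, edgeR adjusted p = 0.818), with a 95% interval of -2.73 to -1.04 and an unadjusted p of 0.000805. DESeq2 placed it past the threshold (adjusted p = 0.0047), as did edgeR without the filter on low counts (adjusted p = 0.0369). Over all 13 alternatives the adjusted p ran from 0.0047 to 0.9997. Leaving out 1 library left the value between -2.09 and -1.48, the latter without saline 1, the highest library.

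Adamtsl1 was at 7.16, 14.3 and 9.60 CPM in saline 1 to 3 and 8.09, 5.78 and 5.93 CPM in PLEA 1 to 3. PLEA 1 lay above saline 1, so the groups overlapped (log2 fold change -0.65, SE 0.28, edgeR adjusted p = 0.818). Adamtsl4, linked to fibrillin in the eye, was at 11.6, 17.7 and 6.34 CPM in saline 1 to 3 and 9.13, 5.10 and 8.78 CPM in PLEA 1 to 3. Saline 2 was again the high library, and without it the log2 fold change moved from -0.63 to -0.23. Adamtsl2, known to bind a carrier of the growth factor TGF-beta, was at 6.16, 2.83 and 7.51 CPM in saline 1 to 3 and 6.88, 3.12 and 4.47 CPM in PLEA 1 to 3. Its lowest libraries were saline 2 and PLEA 2, so the groups overlapped (log2 fold change -0.19, SE 0.41). Adamtsl5 was at 9.09, 5.49 and 5.11 CPM in saline 1 to 3 and 7.51, 4.70 and 6.09 CPM in PLEA 1 to 3. Saline 1 was the highest library and PLEA 2 the lowest (log2 fold change -0.11, SE 0.29).

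Over the 38 tested members the median log2 fold change was -0.11, with 13 positive and 25 negative values, where 49.0% of all tested genes were positive. At an unadjusted p under 0.05 the edgeR test gave 2 members higher, Adamts13 and Adamts18, where the share over all tested genes was 2.28%. It gave 4 lower, Adamts2, Adamts6, Adamts19 and Adamtsl3, where that share was 3.58%. Groups did not overlap for 3 members higher in PLEA (5.16% of all tested genes) and 4 lower (5.54%). In either direction this made 6 of 38 members (15.8%, against 5.86% of all tested genes) by p and 7 by overlap (against 10.7%). These counts describe the members that passed the filter, and none is a test of the family. The family medians were -0.18 for MMPs, -0.076 for ADAMTS, -0.63 for ADAMTSL and 0.062 for TIMPs. DESeq2 called 0 members higher and 1 lower (Adamtsl3), where it called 0.011% and 0.204% of its 18157 genes, and limma voom called 0 in each direction.

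**Figure D4:**
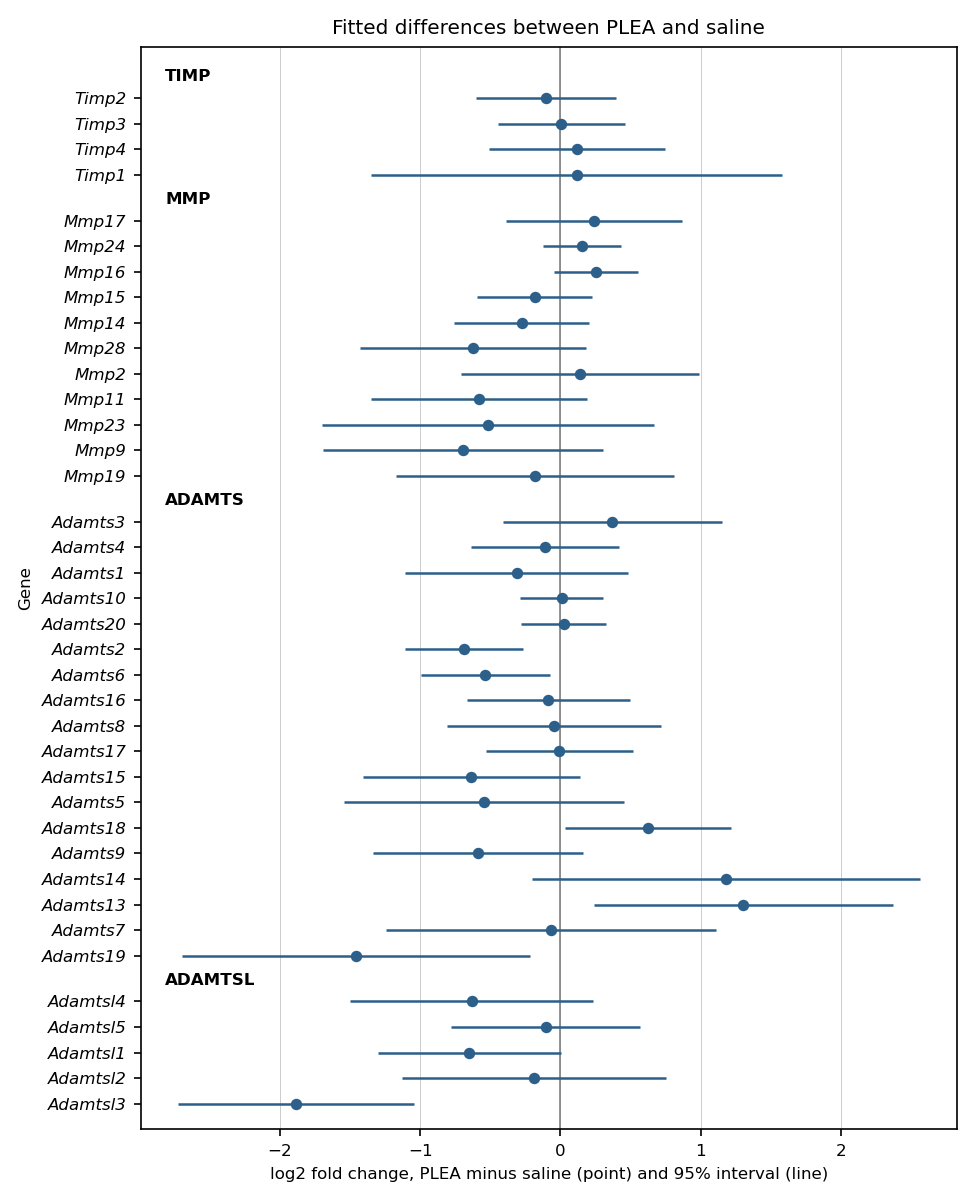
Log2 fold changes of the 38 tested genes, PLEA minus saline, from the edgeR fit (points) with 95% intervals (lines, not adjusted for multiple tests), in the order of the plot of levels. The intervals of Adamtsl3, Adamts2, Adamts6 and Adamts19 lie below 0 and those of Adamts13 and Adamts18 above it; those of the TIMPs and MMPs all include 0.

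Members were compared with markers of cell types known to make them, as values side by side. The 10 meningeal and perivascular fibroblast markers summed to 242, 179 and 222 summed CPM in saline 1 to 3 and 133, 122 and 119 summed CPM in PLEA 1 to 3. These groups did not overlap, and 8 of the 10 markers were lower in PLEA with no overlap, where the share over all tested genes was 5.54%. Adamtsl3 and Adamts2 were also lower in every PLEA library, as were Adamts6 and Adamts19. Any gene lower in PLEA with no overlap shares this order of the groups, and the pairing was chosen after the values were seen. Within saline, Adamts2 was highest in saline 2 (15.7 CPM), where the marker sum was lowest. As a sum, the pericyte and smooth muscle markers did not overlap either, by a narrow margin. They were at 375, 250.1 and 269 summed CPM in saline 1 to 3 and 244, 223 and 210.2 summed CPM in PLEA 1 to 3. Of 7 tested markers 1, Pdgfrb, was lower in PLEA with no overlap. Tagln, too low to be tested, was higher in PLEA with no overlap. Astrocyte markers, at 7287, 4489 and 4638 summed CPM in saline 1 to 3 and 4668, 3444 and 4121 summed CPM in PLEA 1 to 3, overlapped as a sum, while all 8 had negative fitted values and 3 did not overlap. Lower values were not particular to these lists. Of 8 endothelial markers 3 were lower in PLEA with no overlap, with 6 negative and 2 positive fitted values. All 9 microglia markers and all 6 tested monocyte and macrophage markers had negative fitted values, while all 9 striatal markers had positive ones. The part of any of these cell types in the Adamtsl3 and Adamts2 values was not tested.

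The 10 monocyte and macrophage markers summed to 716, 68.8 and 79.0 summed CPM in saline 1 to 3 and 173, 32.9 and 83.5 summed CPM in PLEA 1 to 3. Saline 1, PLEA 1 and PLEA 3, with high Timp1 and Mmp12, had the highest sums. PLEA 3 lay near saline 3, in which Timp1 was low and Mmp12 at 0. Much of these sums came from Spp1, at 477, 31.8 and 19.1 CPM in saline 1 to 3 and 84.7, 8.61 and 39.5 CPM in PLEA 1 to 3. The part of macrophages in the Timp1 and Mmp12 values was not tested. Serpina3n, a reactive astrocyte gene, was at 238, 72.9 and 65.7 CPM in saline 1 to 3 and 127, 34.7 and 163 CPM in PLEA 1 to 3. It was high in saline 1, PLEA 1 and PLEA 3, the same libraries as Timp1, as was Lcn2, a binding partner of MMP9, at 11.9, 0.694 and 3.02 CPM in saline 1 to 3 and 4.80, 1.13 and 11.2 CPM in PLEA 1 to 3. Serpina3n and Lcn2 were singled out after their values were seen, and no part of theirs in the Timp1 values was tested.

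Adamts3 moved with the striatal markers, which summed to 1043, 258 and 2338 summed CPM in saline 1 to 3 and 1111, 2368 and 2032 summed CPM in PLEA 1 to 3. Saline 2 was lowest and PLEA 2 highest in both, with saline 3 and then PLEA 3 next below PLEA 2 in both. This pair was also chosen after the values were seen, and the share of striatum in the Adamts3 values was not tested. Mmp17 was low in saline 2 and PLEA 2, as were cortical excitatory neuron markers, at 4918, 2574 and 3885 summed CPM in saline 1 to 3 and 4481, 3279 and 3848 summed CPM in PLEA 1 to 3. The order differed otherwise, with the highest marker sum in saline 1 and the highest Mmp17 level in PLEA 1. This pair too was chosen after the values were seen, and the part of cortical neurons in the Mmp17 values was not tested.

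**Figure D5:**
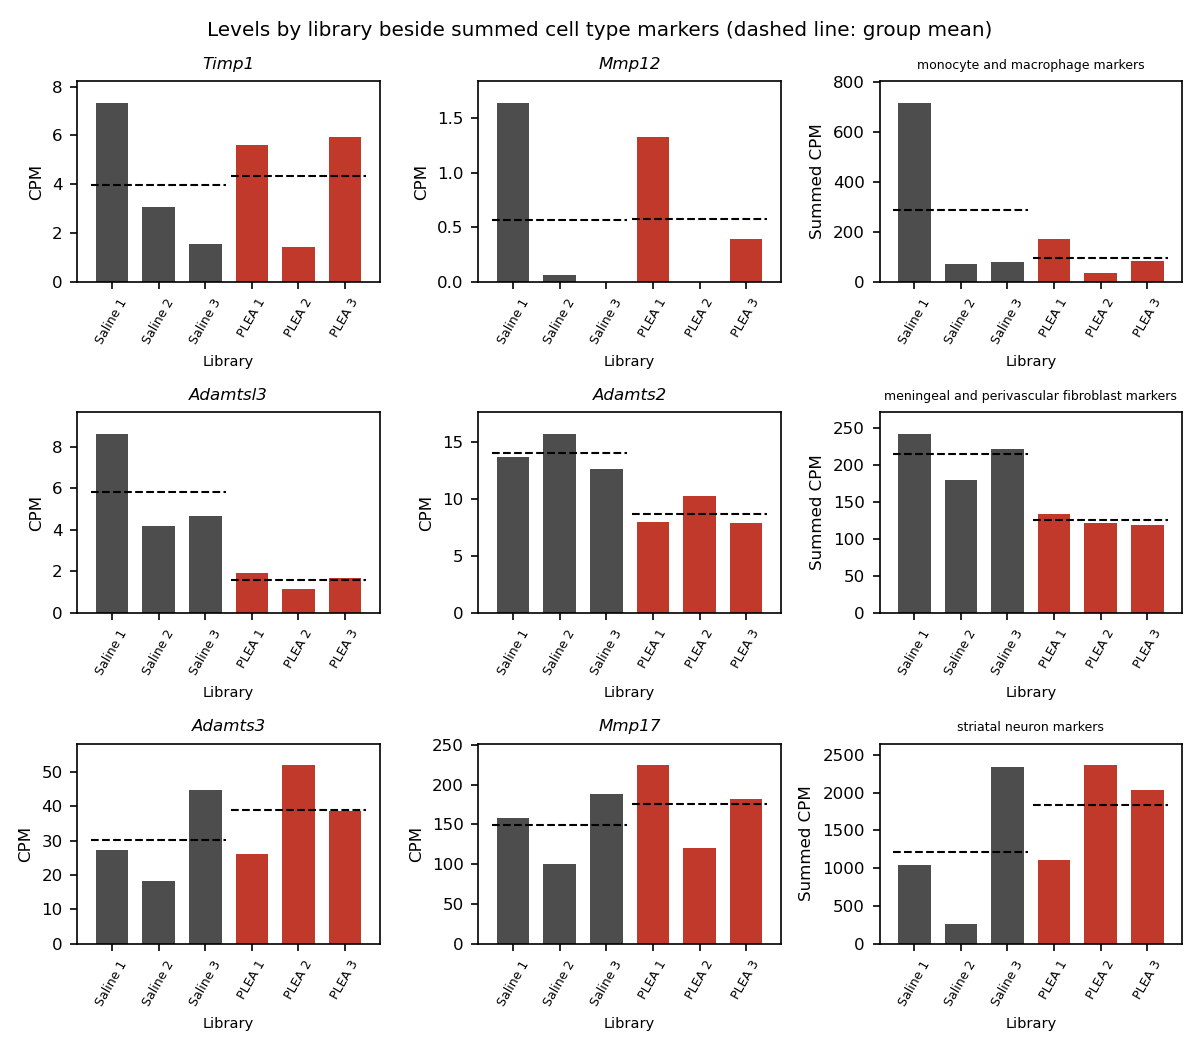
CPM of 6 genes in each library (bars, grey saline and red PLEA, dashed lines group means) beside the summed CPM of 3 marker lists. Timp1 and Mmp12 are high in saline 1, PLEA 1 and PLEA 3, Adamtsl3, Adamts2 and fibroblast markers are lower in all PLEA libraries, and Adamts3 and striatal markers are lowest in saline 2.

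The balance of proteases and inhibitors was described per library on the RPKM scale. Summed MMP levels relative to summed TIMP levels were 0.442, 0.231 and 0.396 in saline 1 to 3 and 0.522, 0.270 and 0.403 in PLEA 1 to 3. Saline 2 and PLEA 2 had the lowest ratios and PLEA 1 the highest, so both groups spanned much of the range. The ratio of Mmp14 to Timp2, which form a complex on the cell surface, was 0.0420, 0.0204 and 0.0200 in saline 1 to 3 and 0.0254, 0.0160 and 0.0283 in PLEA 1 to 3. Mmp9 relative to Timp1 was 0.0361, 0.194 and 0.432 in saline 1 to 3 and 0.0466, 0.171 and 0.0734 in PLEA 1 to 3, and it was lowest in saline 1 and PLEA 1, where Timp1 was high. Every ratio rests on RNA and says nothing of active enzyme.

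Other genes of the pathway were taken from 5 lists, and 0 genes of any list passed in either direction. For activators and cofactors, 12 of 13 genes were tested, and their median log2 fold change was -0.16. Plau, the urokinase that starts plasmin-driven MMP activation, was at 9.03, 1.79 and 1.97 CPM in saline 1 to 3 and 5.49, 1.08 and 2.79 CPM in PLEA 1 to 3. Saline 1 and PLEA 1 were its high libraries. For Furin, which activates membrane-type MMP precursors, the log2 fold change was 0.13 (SE 0.17). For Bsg, an inducer of MMPs, it was -0.069 (SE 0.11).

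Non-TIMP inhibitors and clearance genes had a median of -0.21 over 15 tested of 16 genes. At an unadjusted edgeR p under 0.05, 3 were lower, Serpine2, Thbs1 and Thbs2, and 0 higher. Over all tested genes those shares were 3.58% and 2.28%. Groups did not overlap for 2 genes lower and 1 higher, against 5.54% and 5.16% of all tested genes. Reck, a membrane-bound MMP inhibitor, ranged from 15.0 to 19.4 CPM with a log2 fold change of -0.13 (SE 0.14). Papln, a papilin related to ADAMTS proteins, was at 3.58, 2.89 and 6.65 CPM in saline 1 to 3 and 7.17, 6.74 and 7.55 CPM in PLEA 1 to 3, with all PLEA libraries above saline (log2 fold change 0.71, SE 0.32, edgeR adjusted p = 0.818). Thbs1, a thrombospondin that binds MMPs, was at 29.7 CPM in saline 1 and 2.83 to 6.86 CPM in the other 5 libraries. Its log2 fold change was -1.65 (SE 0.66), and saline 1 stood apart.

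ADAM proteases, membrane relatives of the ADAMTS enzymes, had a median of -0.058 over 10 tested of 11 genes. Brain matrix and barrier substrates had a median of -0.26 over 20 genes, 17 of them with negative values. Groups did not overlap for 4 of the 20 lower in PLEA and 1 higher, against 5.54% and 5.16% of all tested genes. Fn1, which encodes fibronectin, was at 245, 102 and 119 CPM in saline 1 to 3 and 88.3, 63.1 and 86.9 CPM in PLEA 1 to 3, with every PLEA library below every saline library (log2 fold change -0.97, SE 0.32, edgeR adjusted p = 0.818). Bcan, the brevican cut by ADAMTS4, was also lower in each PLEA library, at 160.0 to 186 CPM against 194 to 209 CPM in saline (log2 fold change -0.21, SE 0.11, edgeR adjusted p = 0.818). Acan, the aggrecan of perineuronal nets, was highest in saline 2, at 11.3 CPM against 2.58 to 5.05 CPM in the others.

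Inducers and transcription factors had a median of -0.043 over 16 tested of 20 genes. The cytokine genes Tnf, Il1b and Il6, known to induce MMPs, were each below 1 CPM in every library and were not tested. Fosb, a subunit of AP-1, was at 10.0, 12.3 and 13.2 CPM in saline 1 to 3 and 18.3, 16.9 and 19.1 CPM in PLEA 1 to 3. All PLEA libraries lay above all saline libraries (log2 fold change 0.61, SE 0.16, edgeR adjusted p = 0.818), and it was the 1 gene of this list with an unadjusted p under 0.05. Fos, also a part of AP-1, ranged from 12.4 CPM in PLEA 2 to 33.6 CPM in saline 2 (log2 fold change -0.17, SE 0.33). Jun, the other part, ranged from 38.3 CPM in PLEA 2 to 66.9 CPM in saline 1 (log2 fold change -0.23, SE 0.19). Any link between these levels and the counts of the clustered MMP genes with AP-1 letters was not tested.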

How the data were processed

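Extraction used an RNeasy kit and library preparation a SMARTer mRNA kit, per the labels' protocols. The authors deposited raw counts per gene for 6 libraries in 1 table, with gene lengths and coordinates. How reads were aligned, counted and assigned to strands is not given in the sources used here. GRCm38 and mm10 are named in the submitters' processing notes, but 2.76% of shared genes matched the coordinates of GENCODE M21, so no build is attached to the table's coordinates.

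Groups came from the titles. Genes were filtered with filterByExpr, scaled by TMM and tested with edgeR 4.0.16 (quasi-likelihood, PLEA against saline, Benjamini-Hochberg over 17584 genes, threshold 0.05) in R 4.3.3. The SE is the log2 fold change divided by the root of its F statistic, and the 95% intervals are not adjusted for multiple tests. CPM and RPKM were computed from the deposited counts and lengths. Alternatives used DESeq2 1.42.0, limma 3.58.1 (voom), other scaling, other filters, a replicate block, and each library left out.

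Members were chosen by symbol and biotype. Tested members averaging at least 5 CPM, the 4 with the smallest p in each direction, and a fixed set of gelatinases, other injury-linked MMPs, TIMPs and ADAMTS genes were given with values per library. Other members and genes of the marker and pathway lists that are named were chosen after their values were seen. The members, roles, markers and pathway lists were chosen with earlier results of these data known. The test was also run on counts simulated from its own fitted dispersions, which cannot show how it handles shared shifts between these libraries. No pair of libraries agreed within sampling noise. Protein sequences were not used here.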

Additional observations from a re-analysis of the deposited data

How the results depend on the processing

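Counting error limits the low members, of which 13 were not tested, and the strand setting limits members that share exons with other genes. Over all genes, 0 were called in either direction by the edgeR test, against 2 higher and 37 lower by DESeq2. Without the filter on low counts, edgeR called 7 higher and 31 lower, and the cause was not tested. Both called 1 member lower, Adamtsl3. Leaving out 1 library gave 0 to 1 genes lower, the 1 without saline 1. Members at an unadjusted p under 0.05 numbered 6, 12 without the filter and 4 to 8 with 1 library left out.

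Deviations from the group mean correlated at r = 0.373, 0.173 and -0.018 between same-numbered libraries, against -0.358 to 0.23 between differently numbered ones. With 3 libraries per group, these values cannot show whether same-numbered libraries were paired. With the replicate block, 0 genes were called, 7 members had an unadjusted p under 0.05 and the member median was -0.097.

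Of 31 named genes with a test, 17 kept their direction in every alternative that gave a value, which was 13 alternatives or, for Adamts13 and Adamts19, 12. Adamts10 turned to -0.0034 with DESeq2 and -0.0076 without the filter. Adamts17 turned to 0.0043 with upper-quartile factors and 0.0019 with the replicate block. Timp3 turned to -0.0057 with DESeq2, -0.032 with limma voom, -0.0091 without the filter and -0.031 with the replicate block. With 1 library left out, these genes turned, with ranges of -0.59 to 0.061 for Adamts1, -0.078 to 0.061 for Adamts10, -0.23 to 0.17 for Adamts16, -0.12 to 0.15 for Adamts17, -0.034 to 0.067 for Adamts20, -0.27 to 0.091 for Adamts4, -0.54 to 0.087 for Adamtsl2, -0.30 to 0.21 for Adamtsl5, -0.31 to 0.016 for Mmp15, -0.11 to 0.44 for Mmp2, -0.28 to 0.91 for Timp1, -0.28 to 0.11 for Timp2, -0.27 to 0.13 for Timp3 and -0.097 to 0.34 for Timp4. The family medians ranged from -0.40 to -0.08 for MMPs, -0.23 to 0.01 for ADAMTS, -0.79 to -0.35 for ADAMTSL and -0.14 to 0.14 for TIMPs. Adamts13 and Adamts19 were not tested under the filter of 1 CPM in 3 libraries.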
